A study of Mus musculus with 8 samples.

Results

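The transcripts described here are the RNAs encoded by the mitochondrial genome and the small noncoding RNAs of the nucleus that were counted in RNA sequencing of mouse pancreatic islets. They were chosen by symbol: names starting with mt-, Snord, Snora, Scarna, Rnu, Rn7s or Rny, together with Rpph1, Rmrp and Terc. Of 16333 listed genes, 53 matched. They comprise 2 mitochondrial ribosomal RNAs (rRNAs), 10 mitochondrial mRNAs, 3 mitochondrial tRNAs and 38 nuclear small RNAs, and Terc, the telomerase RNA, was not among the listed genes. Because every listed gene had a mean of at least 23.2 normalized reads over all libraries, a small RNA had to reach that level to be listed. The members nearest to it were Snord66, with a mean of 23.5, Snora21, with 24.0, and Snord34, with 24.3. These 3 reached it only through the KO cytokine islets: Snord34 had a group mean of 42.4 there, against 14.3 to 21.1 in the other groups, Snora21 39.6, against 17.6 to 19.3, and Snord66 35.6, against 18.2 to 21.4. A high level in KO cytokine islets was thus a condition of their being listed. GENCODE M21 annotates 99 Snord, 42 Snora and 9 Scarna genes, of which 16, 7 and 4 were listed.

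The 8 libraries came from islets of mice on an Agouti/C57BL6 background, whose titles number 2 per genotype. In knockout mice (KO, labelled NFATc2βKO), tamoxifen given to adults had removed the transcription factor NFATc2 from cells labelled as INS-1 expressing. Wild-type mice (WT) had received tamoxifen as well, without a resulting knockout. Islets were hand-picked, kept overnight in 5.5 mM glucose and then treated for 2 h or left untreated for 2 h. The treatment combined 11 mM glucose with the cytokines IFNγ (50 ng/mL), TNFα (10 ng/mL) and IL1β (5 ng/mL). The groups were thus KO cytokine, KO untreated, WT cytokine and WT untreated islets, with 2 libraries each, and the cytokines and the higher glucose cannot be told apart. The deposited tables call the wild-type genotype Mut, a name that no label uses, and it was taken as the remaining genotype. The deletion is restricted by design to those cells, whereas whole islets were sequenced.

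Mitochondrial DNA is transcribed as long precursors from which rRNAs, mRNAs and tRNAs are cut out, so that all of its products depend on a nuclear-encoded polymerase and on processing enzymes. In the nucleus, C/D and H/ACA small nucleolar RNAs (snoRNAs) guide methylation and pseudouridylation of rRNA, and most are trimmed from introns of other genes. Small Cajal body RNAs guide the same modifications on spliceosomal RNAs. Y RNAs, 7SK, 7SL and the RNA subunits of RNase P and RNase MRP are made by RNA polymerase III and work in protein complexes with structural or catalytic tasks.

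The sequences that follow are those of the small RNAs on which the results turn, read from the GENCODE M21 transcripts (build GRCm38) and written 5′ to 3′ with T for U. The first set holds C/D snoRNAs. Capitals mark TGATGA, which matches the C box, and CTGA within the last 12 bases, which matches the D box; both were searched on the RNA strand alone. TGATGA occurred in 14 of the 16 listed Snord genes and in 75.8% of the 99 annotated ones, and CTGA in 13 of 16 and in 86.9%. Snord49a and Snord49b lie in introns of the same gene and were identical at 53 of 75 aligned positions. Snord53 is shown as a C/D snoRNA whose level hardly differed.
Snord49a (chr11:62603450-62603521, + strand): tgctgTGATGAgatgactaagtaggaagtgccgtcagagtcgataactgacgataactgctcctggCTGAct
Snord49b (chr11:62603079-62603150, + strand): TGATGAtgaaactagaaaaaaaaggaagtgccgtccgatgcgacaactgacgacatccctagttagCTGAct
Snord34 (chr7:45126601-45126670, - strand): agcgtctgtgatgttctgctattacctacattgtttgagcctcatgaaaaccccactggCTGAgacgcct
Snord82 (chr1:86356261-86356330, - strand): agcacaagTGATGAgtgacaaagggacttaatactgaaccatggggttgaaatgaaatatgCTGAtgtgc
Snord104 (chr11:106500993-106501062, + strand): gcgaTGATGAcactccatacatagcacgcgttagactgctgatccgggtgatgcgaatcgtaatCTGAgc
Snord53 (chr17:71640879-71640956, + strand): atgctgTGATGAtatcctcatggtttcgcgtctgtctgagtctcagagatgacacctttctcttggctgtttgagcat

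The second set holds the H/ACA snoRNA with the smallest p among its kind with cytokines in KO islets and for KO over WT with cytokines. Capitals mark ACA 3 bases before the end, found in 6 of the 7 listed Snora genes and in 83.3% of the 42 annotated ones.
Snora78 (chr17:24719676-24719803, - strand): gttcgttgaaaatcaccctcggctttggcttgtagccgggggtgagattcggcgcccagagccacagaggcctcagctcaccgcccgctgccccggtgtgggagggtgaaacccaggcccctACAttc

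The third set holds the abundant short RNAs: both listed Y RNAs, with the closing run of T in capitals, and the spliceosomal U12 RNA, with ATTTTTG in capitals, which matches the binding site of Sm proteins. Rny1 and Rny3 were identical at 81 of 112 aligned positions.
Rny1 (chr6:47788069-47788180, - strand): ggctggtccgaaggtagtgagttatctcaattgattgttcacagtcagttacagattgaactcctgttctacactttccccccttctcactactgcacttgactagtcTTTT
Rny3 (chr6:47781624-47781725, + strand): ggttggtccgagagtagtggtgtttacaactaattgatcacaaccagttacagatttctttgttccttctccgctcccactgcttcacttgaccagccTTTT
Rnu12 (chr15:83149644-83149794, + strand): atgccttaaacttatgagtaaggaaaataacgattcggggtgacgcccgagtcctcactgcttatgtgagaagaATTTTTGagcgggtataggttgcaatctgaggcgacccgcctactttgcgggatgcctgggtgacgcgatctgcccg

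The last sequence is that of Rmrp, called in the genotype comparison of untreated islets, in lower case throughout.
Rmrp (chr4:43492788-43493058, - strand): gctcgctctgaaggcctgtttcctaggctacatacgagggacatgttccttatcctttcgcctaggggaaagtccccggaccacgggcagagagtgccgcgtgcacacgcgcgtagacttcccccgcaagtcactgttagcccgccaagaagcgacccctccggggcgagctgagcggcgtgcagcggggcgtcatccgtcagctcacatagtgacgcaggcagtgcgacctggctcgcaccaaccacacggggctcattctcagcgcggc

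Whole reads of each library were recovered from the deposited group means for 16323 genes, 51 of the members among them, and libraries held 14869312 to 27589725 such reads. A normalized read below is a recovered read divided by the size factor of its library. For mt-Co1 and Rn7sk, the most abundant members, the reads could not be settled and the authors' group means are given instead. Reads of 4 Y-linked genes showed that each group held a female and a male mouse, so that libraries are named by genotype, treatment and sex. Libraries of the same genotype and sex were taken as the same mouse, which the replicate numbers of the labels could not be matched to. Sex and individual mouse cannot be told apart within a genotype. Nfatc2 itself had 987 and 899 normalized reads in KO cytokine islets and 1167 and 842 in KO untreated islets, against 1646 and 1144 in WT cytokine islets and 1557 and 1270 in WT untreated islets of the female and male mouse. The beta-cell, alpha-cell, and delta and PP markers were all listed, 15 of 15, and the pancreatic polypeptide gene Ppy fell with cytokines in KO islets by the authors' deposited table (-0.84 ± 0.16, FDR 0.000475). Acinar markers, 7 of 9 listed, summed to 102610 and 17857 in KO cytokine islets, 59590 and 25942 in KO untreated islets, 23539 and 4468 in WT cytokine islets and 51344 and 6195 in WT untreated islets of the female and male mouse. Leukocyte markers, 5 of 6 listed, summed to 2226 and 2823 in KO cytokine islets and 1691 and 1317 in KO untreated islets, against 962 and 817 in WT cytokine islets and 645 and 837 in WT untreated islets. Their sum was thus higher with cytokines in both KO mice, although 3 of the 5 markers lay above 0 in KO islets and 5 of 5 in WT islets. Among them, Ptprc had a log2 fold change of 1.33 ± 0.34 with cytokines in KO islets in the authors' deposited table (FDR 0.154). Stromal markers were 5 of 5 above 0 for KO over WT in untreated islets, where Dcn was called (2.36 ± 0.54, FDR 0.00605). Endothelial markers were 0 of 5 above 0 in both genotype comparisons, with 3 called lower in KO with cytokines, and none of the 5 erythroid markers was listed. The part of cell makeup in the results that follow was not tested. In whole islets, fewer cells of a type and less RNA per cell cannot be told apart. The labels do not say whether libraries of a group came from separate cultures beyond the mouse, so p-values measure the spread between these libraries.

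The mitochondrial rRNAs carried the largest differences with cytokines in KO islets among mitochondrial transcripts. mt-Rnr1, the 12S rRNA of the small mitochondrial ribosome subunit (chrM:70-1024, + strand), had 1984 normalized reads in KO cytokine islets of the female mouse and 7574 in those of the male mouse, against 649 and 2819 in KO untreated islets. In both KO mice the treated islets were thus higher, although the mice differed so much that the groups overlapped. In WT islets mt-Rnr1 had 1987 and 1675 normalized reads with cytokines, against 1117 and 1661 untreated, so the female mouse was higher and the male mouse nearly level, and the groups just failed to overlap. mt-Rnr2, the 16S rRNA of the large subunit (chrM:1094-2675, + strand), had 16065 and 31138 normalized reads in KO cytokine islets, against 5992 and 13356 in KO untreated islets. These groups did not overlap (15.3% of all genes were higher in this way), although the mice differed widely within each. In WT islets mt-Rnr2 had 5339 and 14470 normalized reads with cytokines, against 3132 and 13528 untreated, and there the spread between the mice exceeded the difference.

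The authors' deposited table on the cytokine response in KO, for which no mouse term is stated, gives a log2 fold change of 1.49 ± 0.85 (standard error, SE) for mt-Rnr1 and of 1.28 ± 0.99 for mt-Rnr2. Neither passed the authors' threshold, an FDR below 0.05 over all listed genes. With the mouse as a block, limma gave a log2 fold change of 1.52 ± 0.16 for mt-Rnr1 and 1.32 ± 0.13 for mt-Rnr2 on the recovered reads, each with an adjusted p of 0.0129. That fit leaves 2 residual degrees of freedom. Both RNAs rose in KO islets by that test. In WT islets the same fit gave 0.42 ± 0.16 for mt-Rnr1 (adjusted p 0.339) and 0.43 ± 0.13 for mt-Rnr2 (adjusted p 0.262). The difference between the genotypes' responses was 1.10 ± 0.22 for mt-Rnr1 and 0.89 ± 0.18 for mt-Rnr2 in that fit, with an adjusted p of 0.998 for each over all genes, so it did not pass the test.

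**Figure D1:**
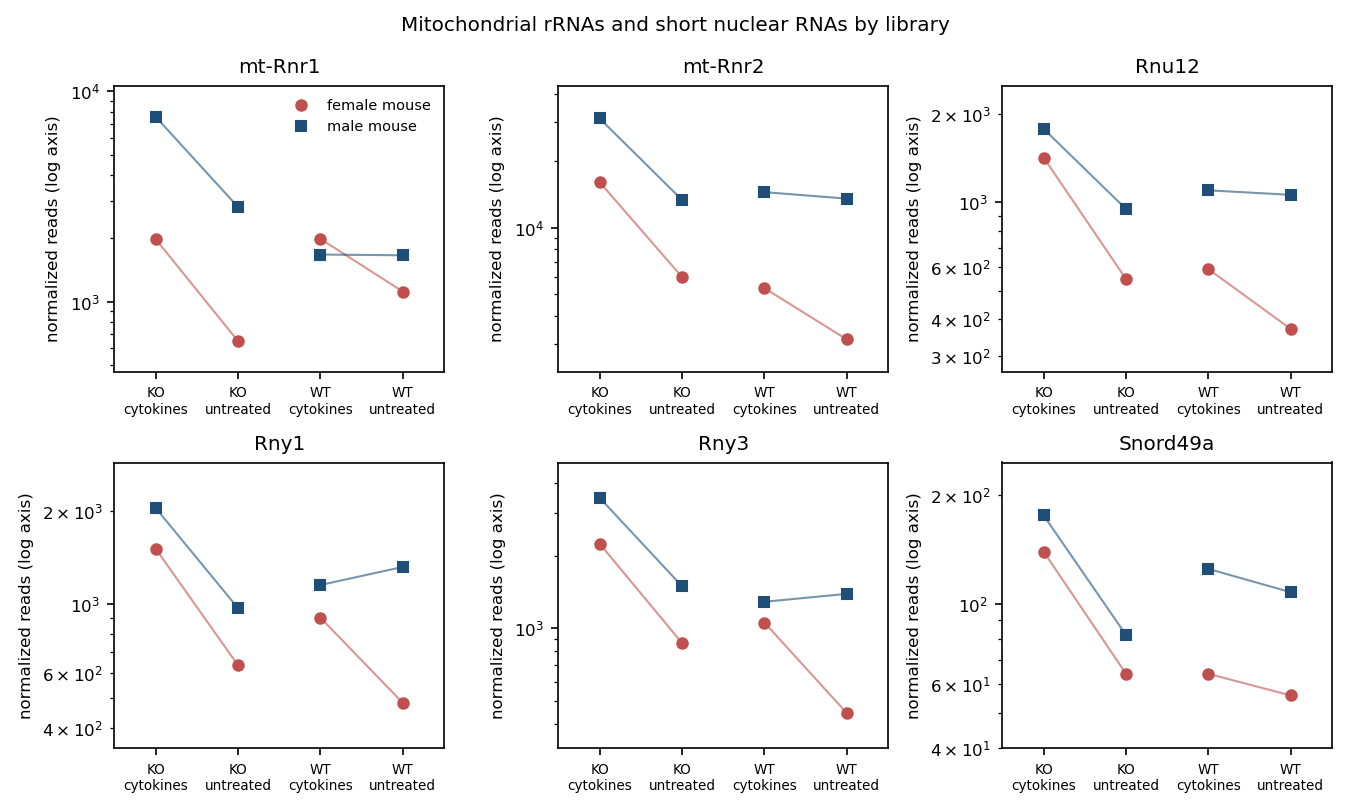
Normalized reads (log axis) of the mitochondrial rRNAs, Rnu12, the Y RNAs and Snord49a in each of the 8 libraries. Circles are female and squares male mice, and a line joins the cytokine-treated and untreated islets of a mouse; all 6 RNAs were higher with cytokines in both KO mice, and the WT male mouse differed less.

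Over all members and the 4 authors' comparisons, the calls were few. With cytokines, 0 of 53 members passed in KO islets, where 0.0429% of all genes did, and 0 of 53 in WT islets, where 0.0122% did. At an unadjusted p below 0.05, the authors' deposited tables hold 3 members for KO islets (1.02% of all genes) and 1 for WT islets (0.918%). Between the genotypes, 0 of 53 members passed in cytokine-treated islets, where 0.998% of all genes did, and 2 of 53 in untreated islets, where 0.410% did. At an unadjusted p below 0.05 these tables hold 8 members with cytokines (5.88% of all genes) and 2 untreated (4.89%). The calls of limma with the mouse as a block in KO islets were mt-Rnr1, mt-Rnr2 and Rnu12, or 3 of 51 members, beside 0.123% of all genes, and 18 of 51 had an unadjusted p below 0.05, beside 8.34%. In WT islets it called 0 of 51 members beside 0.153% of all genes, and 6 of 51 had an unadjusted p below 0.05, beside 12.1%. With voom precision weights added, it called 7 of 51 in KO islets, beside 0.331% of all genes, and 0 of 51 in WT islets, beside 0.172%. Without the block, limma called 0 members in each comparison, beside 0.00% of all genes for both cytokine comparisons and 0.0123% for each genotype comparison. In that fit 9 members had an unadjusted p below 0.05 with cytokines in KO islets (1.83% of all genes) and 0 in WT islets (2.06%), 5 for KO over WT with cytokines (6.89%) and 2 untreated (5.97%).

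The mitochondrial mRNAs, which encode subunits of the respiratory chain and of ATP synthase, hardly differed with cytokines in the comparisons of groups. Their log2 fold changes in the authors' deposited tables lay between -0.14 and 0.16 in KO islets and between -0.15 and 0.07 in WT islets. Of the 9 with settled reads 6 were higher with cytokines in both KO mice (30.6% of all genes) and 0 in both WT mice (26.9%). The median was 0.08 in KO islets, with 7 of 10 above 0, and -0.09 in WT islets, with 2 of 10 above 0; over all genes 50.3% and 50.9% lay above 0. None passed the test in any of the 4 comparisons, and none had an unadjusted p below 0.05.

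Per kilobase of transcript, mt-Co1, a catalytic subunit of cytochrome c oxidase, was the most abundant mitochondrial mRNA, with a mean of 85472 normalized reads over all libraries. mt-Cytb, a subunit of complex III, followed with 72799 per kilobase. The complex I subunits ranged from 52859 for mt-Nd1 through 40818 for mt-Nd5, 31470 for mt-Nd2 and 23722 for mt-Nd4 to 16356 for mt-Nd6. mt-Nd5 and mt-Nd6 overlap on opposite strands, and the sources used here do not say whether reads kept strand, so their reads cannot be told apart where they overlap. mt-Co2 and mt-Co3, also of cytochrome c oxidase, reached 332 and 159 per kilobase, and mt-Atp6, of ATP synthase, 97.3.

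Each of these lowest mRNAs had a near-complete copy without mismatch on a nuclear chromosome. The copies are pseudogenes on chromosome 1 that match without mismatch over 99.6% of mt-Co2 (Gm28661), 99.6% of mt-Atp6 (Gm10925) and 99.9% of mt-Co3 (Gm28437). The only other mitochondrial mRNA with a copy over at least 80% of its length at 95% identity or more was mt-Co1, the most abundant. Its copy Gm13340 on chromosome 2 was 97.6% identical. The pseudogenes were listed too, with means of 98.7 normalized reads for Gm28661, 104 for Gm10925, 138 for Gm28437 and 54.0 for Gm13340. Levels of mt-Co2, mt-Co3 and mt-Atp6 are therefore uncertain, since the sources used here do not say how reads that match both a gene and its copy were counted. Gm28437 had 442 normalized reads in KO cytokine islets of the male mouse and 74.9 to 120 in the other 7 libraries.

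The spread of the mitochondrial mRNAs came mostly from the WT female mouse. mt-Nd5 had 82299 and 80543 normalized reads in KO cytokine islets of the female and male mouse and 77120 and 75421 in KO untreated islets, against 49328 and 89695 in WT cytokine islets and 60758 and 80447 in WT untreated islets. The KO libraries lay close together, while in WT islets the female mouse was lower in both cultures. mt-Cytb had 86988 and 87611 normalized reads in KO cytokine islets and 82966 and 80416 in KO untreated islets, against 62123 and 95487 in WT cytokine islets and 79481 and 91183 in WT untreated islets. mt-Nd2 had 35866 and 36888 normalized reads in KO cytokine islets and 34135 and 34669 in KO untreated islets, against 17972 and 39692 in WT cytokine islets and 24887 and 37220 in WT untreated islets. All 9 mRNAs with settled reads were higher in the WT male than in the WT female mouse, with a median log2 ratio of 0.86 with cytokines and 0.29 untreated. In KO islets 5 of 9 and 4 of 9 were higher in the male mouse.

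The genotype comparison of these mRNAs followed that spread. In the authors' deposited table for cytokine-treated islets the log2 fold changes of KO over WT ran from -0.15 to 0.34 with a median of 0.15, highest for mt-Nd2 at 0.34 ± 0.31. Between the female mice the median log2 ratio of KO over WT was 0.63, and between the male mice it was -0.18, so the direction depended on the pair of mice. In untreated islets the median of the authors' values was near 0, with a range from -0.08 to 0.22.

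**Figure D2:**
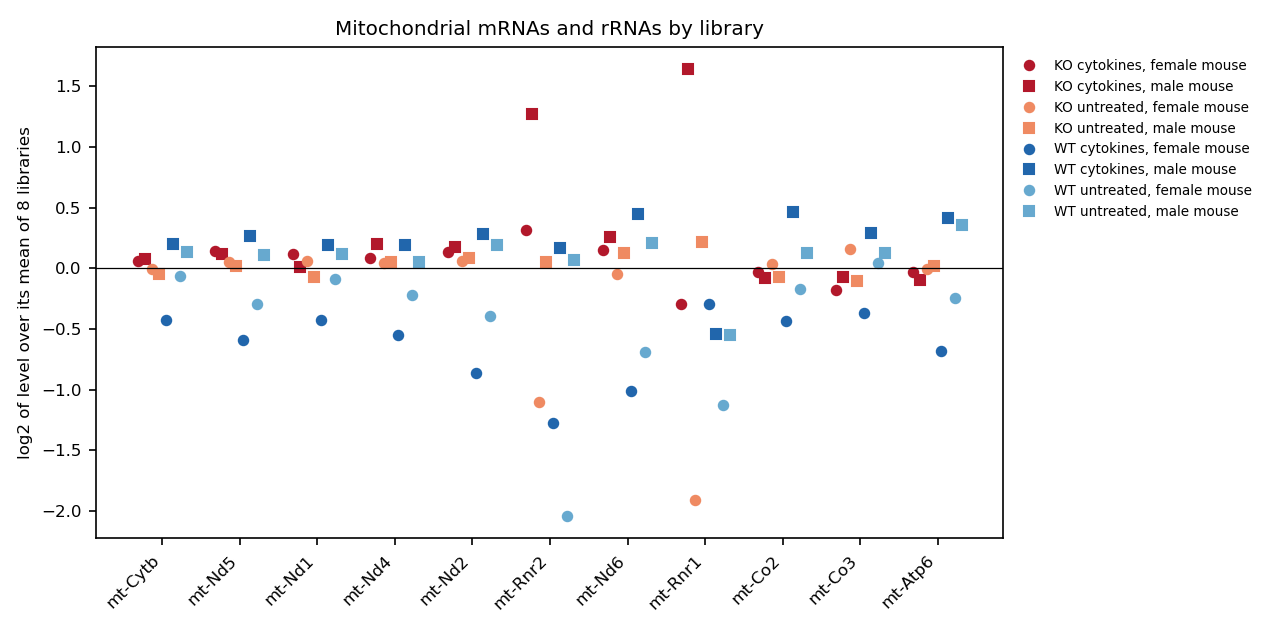
Level of each mitochondrial mRNA and rRNA with settled reads in the 8 libraries, as the log2 ratio to its mean over all libraries. Colours are groups, circles female and squares male mice; the mRNAs of KO libraries lie close together, the WT female libraries lie lowest for most mRNAs, and the rRNAs spread more widely than the mRNAs.

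Of the mitochondrial tRNAs, which carry amino acids to the mitochondrial ribosome, 3 were listed: mt-Tq for glutamine, mt-Tw for tryptophan and mt-Tp for proline. Their lengths were 67 to 71 nt. mt-Tq had 39.3 and 56.0 normalized reads in KO cytokine islets and 57.9 and 59.9 in KO untreated islets, against 60.8 and 113 in WT cytokine islets and 54.5 and 99.7 in WT untreated islets. Its log2 fold change in the authors' deposited table was -0.27 ± 0.54 with cytokines in KO islets and -0.87 ± 0.49 for KO over WT with cytokines, and neither passed. mt-Tw had 87.5 to 115 normalized reads in the 4 KO libraries, against 88.0 to 156 in the 4 WT libraries. mt-Tp had 85.0 and 79.0 in KO cytokine islets and 72.1 and 76.9 in KO untreated islets, against 58.5 to 103 in the WT libraries. With cytokines in KO islets, mt-Tq was lower (14.6% of all genes) and mt-Tp higher (15.3%) without overlap between the groups. None of the 3 passed the test.

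Among the 38 nuclear small RNAs, most were higher with cytokines in KO islets and about as many were higher as lower in WT islets. The deposited tables of the authors show that 33 of 38 had a log2 fold change above 0 in KO islets, with a median of 0.57, against 20 of 38 in WT islets, with a median of 0.03. Without the 3 members listed only through the KO cytokine islets, the counts were 30 of 35 in KO islets, with a median of 0.45, and 19 of 35 in WT islets, with a median of 0.04. Over all genes the shares above 0 were 50.3% in KO islets and 50.9% in WT islets. Of the 37 with settled reads, 29 were higher with cytokines in both KO mice, as were 30.6% of all genes, and 10 in both WT mice, as were 26.9%. In 24 of 37 both KO cytokine libraries lay above both KO untreated libraries (15.3% of all genes), and in 4 of 37 this held in WT islets (11.3%). The 3 members listed only through the KO cytokine islets are among these 37. Of the acinar markers, 7 of 7 lay above 0 with cytokines in KO islets and 0 of 7 in WT islets. Of the leukocyte markers, 3 of 5 lay above 0 in KO islets and 5 of 5 in WT islets. The part of either in these counts was not tested.

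The C/D snoRNAs, taken by the symbol Snord, made up 16 of the 38, and 15 of 16 were above 0 in KO islets in the authors' deposited table, with a median log2 fold change of 0.78, against 7 of 16 with a median of -0.02 in WT islets. Without Snord34 and Snord66, listed only through the KO cytokine islets, 13 of 14 were above 0 in KO islets, with a median of 0.78. Rnu73b, annotated as a snoRNA but not counted here, had -0.11 ± 0.57 in KO islets and 0.36 ± 0.59 in WT islets. Snord49a had 140 and 176 normalized reads in KO cytokine islets, against 64.1 and 82.1 in KO untreated islets, and 64.1 and 125 in WT cytokine islets, against 55.8 and 108 in WT untreated islets. Both KO mice were higher with cytokines and the KO groups did not overlap. Snord49b, from the same host, had 114 and 191 normalized reads in KO cytokine islets, against 56.1 and 81.3 in KO untreated islets, and 35.8 and 92.5 in WT cytokine islets, against 33.2 and 114 in WT untreated islets. Each of these snoRNAs passed in KO islets where limma used voom precision weights and the mouse as a block (adjusted p 0.0217 for Snord49a and 0.0259 for Snord49b) and neither did without the weights (adjusted p 0.0585 and 0.122). Snord104, for which no listed host gene was found, had 169 and 215 normalized reads in KO cytokine islets, against 113 and 130 in KO untreated islets, and 94.5 and 123 in WT cytokine islets, against 121 and 144 in WT untreated islets. It was higher with cytokines in both KO mice and lower in both WT mice, with log2 fold changes of 0.66 ± 0.34 and -0.28 ± 0.35 in the authors' deposited tables, neither of which passed.

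Snord34 had the highest log2 fold change of all members in KO islets in the authors' deposited table, 1.55 ± 0.94, and was listed only through those KO cytokine islets. It had 38.1 and 46.7 normalized reads in KO cytokine islets, against 11.6 and 17.0 in KO untreated islets, and 9.77 and 29.2 in WT cytokine islets, against 6.65 and 35.5 in WT untreated islets. Snord82, from an intron of the nucleolin gene Ncl, had 57.1 and 76.4 normalized reads in KO cytokine islets, against 18.7 and 31.0 in KO untreated islets, and 13.0 and 55.0 in WT cytokine islets, against 10.6 and 64.2 in WT untreated islets. For both the WT male mouse was far above the WT female mouse. Snord13, the U13 RNA, had 119 and 114 normalized reads in KO cytokine islets, against 42.7 and 70.2 in KO untreated islets, and 23.9 and 79.98 in WT cytokine islets, against 17.3 and 64.2 in WT untreated islets. Not all C/D snoRNAs followed: Snord53 had 34.3 and 21.2 normalized reads in KO cytokine islets, against 29.4 and 25.9 in KO untreated islets, and Snord71 had 44.4 and 36.5, against 36.5 and 39.9. Of the members, 16 had means below 50 normalized reads, where counting error is large.

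All 7 H/ACA snoRNAs were above 0 in KO islets in the authors' deposited table, with a median log2 fold change of 0.36, against 2 of 7 with a median of -0.08 in WT islets. Without Snora21, listed only through the KO cytokine islets, 6 of 6 were above 0 in KO islets, with a median of 0.29. Snora78 had 146 and 248 normalized reads in KO cytokine islets, against 65.9 and 126 in KO untreated islets, and 90.1 and 74.1 in WT cytokine islets, against 61.2 and 116 in WT untreated islets. It was higher with cytokines in both KO mice; in WT islets the mice went opposite ways. Its authors' log2 fold change in KO islets was 1.05 ± 0.51 (unadjusted p 0.0411) in the deposited table, and it did not pass over all genes. Snora78 lies opposite the ribosomal protein gene Rps2, so reads of either could have been counted for the other. Snora23 had 43.1 and 27.2 normalized reads in KO cytokine islets, against 18.7 and 25.1 in KO untreated islets, and 31.5 and 29.2 in WT cytokine islets, against 16.0 and 20.6 in WT untreated islets. Its WT log2 fold change, 0.73 ± 0.68, was the highest among nuclear small RNAs in the authors' deposited table and did not pass.

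Of the 4 small Cajal body RNAs, Scarna2 was the most abundant. It had 3524 and 3918 normalized reads in KO cytokine islets, against 3350 and 3414 in KO untreated islets, and 4592 and 3545 in WT cytokine islets, against 4020 and 3682 in WT untreated islets. All 4 were above 0 in KO islets in the authors' deposited table, from 0.13 ± 0.13 for Scarna2 to 0.83 ± 0.55 for Scarna17. Between the genotypes in untreated islets, Scarna17 had a log2 fold change of -0.65 ± 0.50 in the authors' deposited table, which did not pass.

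Most of these guide RNAs are cut from introns, so the level of the gene that holds them was compared with theirs. For 22 members a listed gene on the same strand held the small RNA, 21 within an intron and Snord66 overlapping an exon of Eif4g1, and these 22 shared 19 host genes. Snord34, Snora21 and Snord66, listed only through the KO cytokine islets, are among the 22. A high level there was a condition of their being listed, and the medians and counts that follow were not calculated without them. In KO islets the median log2 fold change with cytokines in the authors' deposited table was 0.69 for the members and 0.01 for the hosts, and 21 of 22 members lay above their host. In WT islets the medians were -0.03 and -0.03, and 11 of 22 lay above. No host had an unadjusted p below 0.05 in either cytokine comparison. The ribosomal protein gene Rpl13a, host of Snord34 and Snord32a, had 0.21, while Snord34 had 1.55 and Snord32a 1.00. Ncl had 0.07 beside 1.39 for Snord82, and 2410006H16Rik, host of both Snord49 RNAs, had -0.04. The hosts farthest above 0 in KO islets were Snhg9 and Gm15832. Snhg9 had 0.74 ± 0.65 beside 1.05 for Snora78, and Gm15832 had 0.65 ± 0.53 beside 0.87 for Snord89.

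**Figure D3:**
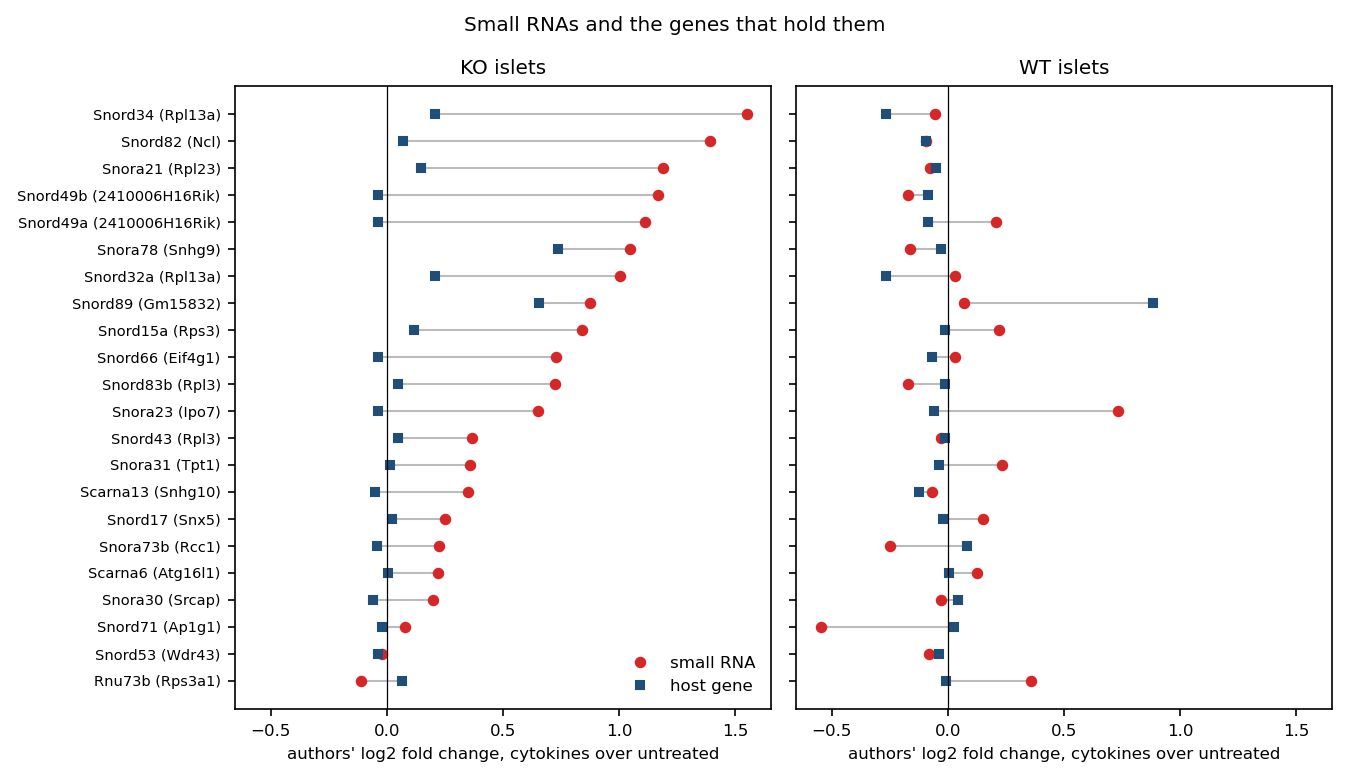
Authors' log2 fold changes with cytokines of 22 small RNAs (red circles) and of the genes that hold them (blue squares), in KO and in WT islets. The 22 include Snord34, Snora21 and Snord66, listed only through the KO cytokine islets. In KO islets 21 of the 22 small RNAs lie right of their host; in WT islets 11 do, and the host genes lie near 0 in both apart from Snhg9 in KO islets and Gm15832 in both.

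The Y RNAs, which bind the Ro60 protein and take part in RNA quality control and DNA replication, were among the most abundant short members. Rny1 had 1508 and 2039 normalized reads in KO cytokine islets, against 636 and 971 in KO untreated islets, and 905 and 1152 in WT cytokine islets, against 481 and 1317 in WT untreated islets. Rny3 had 2240 and 3474 in KO cytokine islets, against 867 and 1493 in KO untreated islets, and 1054 and 1286 in WT cytokine islets, against 444 and 1387 in WT untreated islets. For both RNAs the KO groups did not overlap, and the WT untreated libraries lay on either side of both WT cytokine libraries. Rny1 had the smallest p of all members in KO islets in the authors' deposited table, with a log2 fold change of 1.14 ± 0.43 (unadjusted p 0.00859), yet did not pass over all genes. With voom weights and the mouse as a block in limma, Rny1 and Rny3 passed in KO islets, with adjusted p-values of 0.0442 and 0.0435. Without the weights they did not, with 0.134 and 0.171.

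U12 and U11 RNAs belong to the minor spliceosome, which removes a rare class of introns. Rnu12 had 1423 and 1784 normalized reads in KO cytokine islets, against 547 and 949 in KO untreated islets, and 592 and 1100 in WT cytokine islets, against 370 and 1061 in WT untreated islets. It was higher in both KO mice without overlap, and among WT mice mainly in the female. Its log2 fold change was 1.14 ± 0.15 in KO islets in limma's blocked fit (adjusted p 0.0415) and 1.08 ± 0.70 in the authors' deposited table, where it did not pass. Near-identical copies of Rnu12 (Gm25703, Gm24525 and Gm23502) are annotated and not among the listed genes, so its level may hold reads of more than 1 locus. Rnu11 had 49.5 and 70.5 normalized reads in KO cytokine islets, against 40.9 and 47.3 in KO untreated islets, and 59.7 and 69.1 in WT cytokine islets, against 39.9 and 72.2 in WT untreated islets. Rnu73b, annotated as a snoRNA in an intron of Rps3a1, ranged from 30.4 to 40.1 in KO libraries, against 22.6 to 40.8 in WT libraries.

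7SK and the RNA of RNase P, both long and abundant, were nearly level with cytokines. Rn7sk, the 7SK RNA that holds the elongation kinase P-TEFb inactive, had authors' group means of 284743 normalized reads in KO cytokine islets and 303904 in KO untreated islets, and 310497 in WT cytokine islets and 300911 in WT untreated islets. Its log2 fold change in the authors' deposited tables was -0.09 ± 0.12 in KO islets and 0.04 ± 0.12 in WT islets. Rpph1, the RNA of RNase P, which trims the 5′ ends of tRNA precursors, had 92766 and 88264 normalized reads in KO cytokine islets and 98033 and 92754 in KO untreated islets, against 108837 and 79115 in WT cytokine islets and 106870 and 86918 in WT untreated islets. Here the WT female mouse was highest in both cultures and the groups overlapped. Rpph1 overlaps Ccnb1ip1 on the opposite strand. Scarna2, Rpph1, Rmrp and Rn7sk had standard errors of 0.12 to 0.17 in the cytokine comparisons, the smallest among nuclear small RNAs.

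In KO islets the shorter nuclear small RNAs tended to have higher log2 fold changes, with overlapping ranges. This is a description across RNAs that share libraries and are not independent. The 27 nuclear small RNAs under 200 nt, 70 to 184 nt long, had a median authors' log2 fold change with cytokines of 0.83 in KO islets, with 25 of 27 above 0, and -0.00 in WT islets, with 13 of 27 above 0. The 11 from 200 nt up, 205 to 414 nt long, had medians of 0.22 and 0.07, with 8 and 7 of 11 above 0. In KO islets the shorter RNAs ranged from -0.11 to 1.55 and the longer from -0.13 to 1.14. The shorter ones include members listed only through the KO cytokine islets, Snord34 and Snora21 among them. A high level there was a condition of their being listed. The medians, counts and rho by length were not calculated without these members. Spearman's rho between length and log2 fold change over the 38 RNAs was -0.44 in KO islets and 0.24 in WT islets. Length also went with level (rho 0.56), and level with log2 fold change had a rho of -0.19 in KO islets. The mitochondrial rRNAs, 955 and 1582 nt long, and tRNAs, 67 to 71 nt long, were not part of this description. Their median log2 fold changes with cytokines in KO islets were 1.38 for the rRNAs and 0.004 for the shorter tRNAs. The sources used here do not say whether the library preparation selected fragments by size, and the part of size selection in these differences was not tested.

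**Figure D4:**
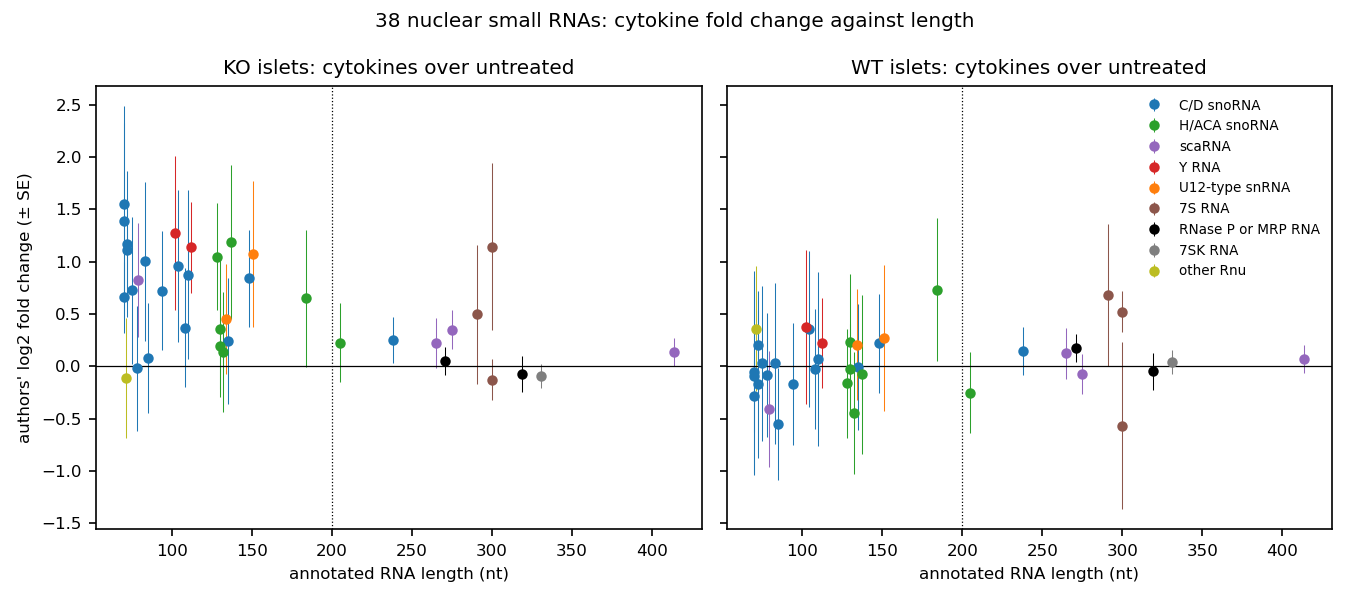
Authors' log2 fold change with cytokines (± SE) of the 38 nuclear small RNAs against annotated length, in KO and in WT islets, coloured by kind of RNA, with a dotted line at 200 nt. The shorter RNAs include members listed only through the KO cytokine islets. In KO islets 25 of the 27 shorter RNAs lie above 0; in WT islets 13 do.

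Rmrp, the RNA of RNase MRP, which processes ribosomal RNA precursors, was higher in KO than in WT islets. It had 47948 and 41177 normalized reads in KO cytokine islets and 40393 and 45220 in KO untreated islets, against 31945 and 36132 in WT cytokine islets and 29427 and 30901 in WT untreated islets. All 4 KO libraries lay above all 4 WT libraries, which were taken to come from 2 mice of each genotype. The share of all genes with that order was not counted. In untreated islets alone, both KO libraries lay above both WT libraries for 18.6% of all genes. In the authors' deposited table for untreated islets Rmrp rose in KO by a log2 fold change of 0.51 ± 0.13 (FDR 0.0353), and with cytokines the value was 0.39 ± 0.13 (FDR 0.170). limma on the recovered reads gave 0.50 ± 0.12 in untreated islets, with an adjusted p of 0.535, so the call rests on the authors' model. Rmrp overlaps Ccdc107 on the opposite strand, and a second annotated gene contains it whole. The cytokine response of Rmrp was 0.05 ± 0.14 in KO islets and 0.17 ± 0.14 in WT islets in the authors' deposited tables.

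The 7S genes encode 7SL RNA, the scaffold of the signal recognition particle, which directs nascent secretory proteins to the endoplasmic reticulum. Rn7s2 had 3528 and 3729 normalized reads in KO cytokine islets and 4382 and 3652 in KO untreated islets, against 1990 and 3005 in WT cytokine islets and 1422 and 2044 in WT untreated islets. As for Rmrp, all 4 KO libraries lay above all 4 WT libraries, again from 2 mice of each genotype. The share of all genes with that order was again not counted. Both KO libraries lay above both WT libraries for 18.6% of all genes in untreated islets and for 14.7% with cytokines. In the authors' deposited table for untreated islets Rn7s2 rose in KO by a log2 fold change of 1.21 ± 0.24 (FDR 0.000296), and with cytokines the value was 0.54 ± 0.24 (FDR 0.562). limma gave 1.23 ± 0.24 in untreated islets with an adjusted p of 0.351. With cytokines Rn7s2 had a log2 fold change of -0.13 ± 0.20 in KO islets and 0.52 ± 0.20 in WT islets in the authors' deposited tables. The WT value had the smallest p of all members in WT islets (unadjusted p 0.00811) and did not pass over all genes.

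Rn7s1, whose 300 bases equal those of Rn7s2, did not follow it. It had 1581 and 1892 normalized reads in KO cytokine islets and 1153 and 534 in KO untreated islets, against 963 and 532 in WT cytokine islets and 566 and 1953 in WT untreated islets. Reads from one of these genes cannot be told from reads of the other, so the value of either alone is uncertain. Summed, the genes had 5109 and 5621 normalized reads in KO cytokine islets and 5535 and 4186 in KO untreated islets, against 2953 and 3537 in WT cytokine islets and 1989 and 3997 in WT untreated islets. The sum kept all 4 KO libraries above all 4 WT libraries, by little between the untreated male mice. How many of all genes show that order was not counted. Rn7s6, identical to Rn7s2 at 257 of 302 aligned positions, ranged from 30.4 to 80.7 in KO libraries, against 21.3 to 47.8 in WT libraries.

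**Figure D5:**
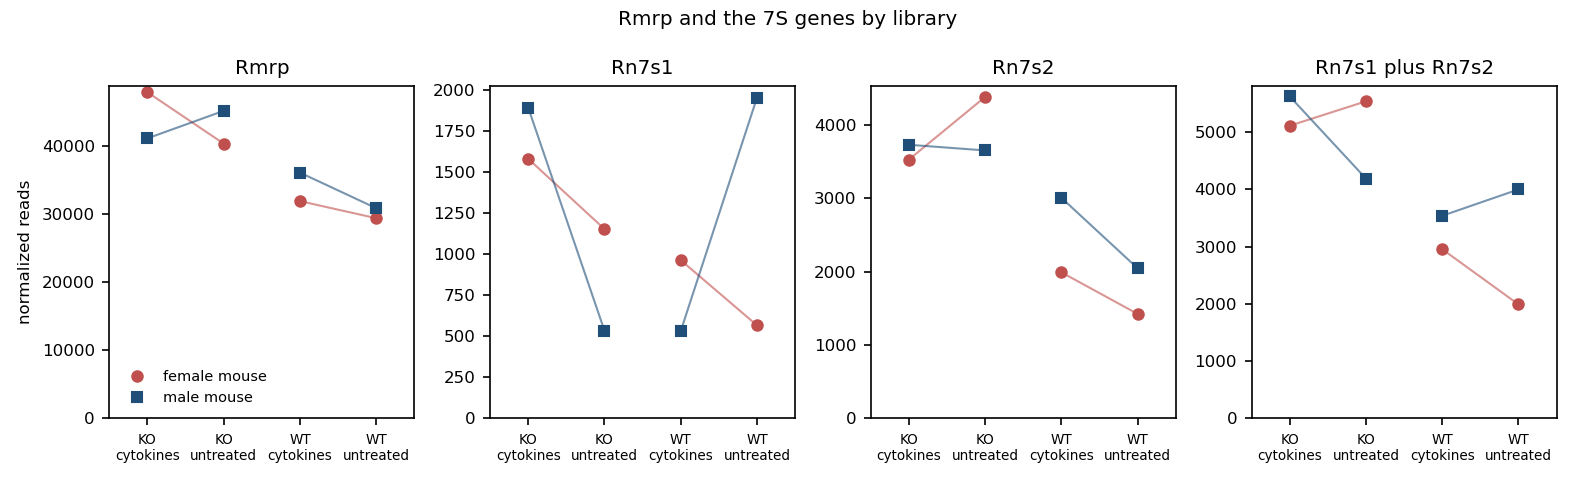
Normalized reads of Rmrp, Rn7s1, Rn7s2 and the sum of the identical genes Rn7s1 and Rn7s2 in the 8 libraries. Circles are female and squares male mice, and a line joins treated and untreated islets of a mouse. For Rmrp, Rn7s2 and the sum every KO library lies above every WT library, with 2 mice of each genotype. The share of all genes with that order was not counted.

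In cytokine-treated islets 31 of the 38 nuclear small RNAs lay higher in KO than in WT in the authors' deposited table, with a median log2 fold change of 0.49 and 49.2% of all genes above 0. Without the 3 members listed only through KO cytokine islets, 28 of 35 did, with a median of 0.45. In 24 of the 37 with settled reads, which include those 3, both KO libraries lay above both WT libraries (14.7% of all genes). This comparison shares its KO libraries with the cytokine response of KO islets and is not separate evidence. In untreated islets 16 of 38 lay higher in KO, with a median of -0.12 and 49.0% of all genes above 0. Both KO libraries lay above both WT libraries in 5 of 37 (18.6% of all genes) and below in 7 of 37 (18.3%). Besides Rmrp, the smallest p-values with cytokines belonged to Snord104, with 0.82 ± 0.30 (FDR 0.264), and Snora78, with 1.27 ± 0.47 (FDR 0.287), in the authors' deposited table.

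The direct test of whether the cytokine response differed by genotype found no member. From the authors' deposited values the difference, KO minus WT, was above 0 for 42 of 53 members with a median of 0.25. Among the 38 nuclear small RNAs, which include the 3 listed only through KO cytokine islets, it was above 0 for 31, with a median of 0.59. It was 1.21 ± 1.20 for mt-Rnr1, 1.00 ± 1.40 for mt-Rnr2, 0.91 ± 0.61 for Rny1, 0.80 ± 0.99 for Rnu12 and 0.90 ± 0.72 for Snord49a. Of the members, 1 had an unadjusted p below 0.05, Rn7s2 with -0.65 ± 0.28, beside 0.220% of all genes, and 0 passed the adjusted test, beside 0.00% of all genes. With the mouse as a block, limma put 15 of 51 members at an unadjusted p below 0.05, beside 4.07% of all genes, and again 0 passed after adjustment; without the block it put 3 there, beside 0.619%. A response in KO islets and none called in WT islets is therefore not a tested difference.

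The male mice had more of these RNAs than the female mice in several groups, where sex and individual mouse cannot be told apart. Of the 37 nuclear small RNAs with settled reads, 26 were higher in the male mouse in KO cytokine islets, 29 in KO untreated islets, 23 in WT cytokine islets and 31 in WT untreated islets. Over all 16323 genes with settled reads, 8201, 8362, 7918 and 8041 were higher in the male mouse, in the same order of groups. For the nuclear small RNAs the median log2 ratio of male over female was 0.29, 0.35, 0.22 and 0.63 in these groups, in that order. The spread between mice was thus of the size of many responses. With cytokines, the median log2 ratio of the nuclear small RNAs was 0.51 in the KO female and 0.61 in the KO male mouse, against 0.29 in the WT female and -0.11 in the WT male mouse.

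Genes whose products make, process or bind these RNAs were followed as lists. For transcription and processing of mitochondrial RNA, 37 of 40 genes were listed and 0 passed in any of the authors' 4 tables; the median log2 fold change with cytokines was 0.02 in KO islets, with 20 of 37 above 0, and -0.01 in WT islets. The smallest p in KO islets there belonged to Fastk, a regulator of mitochondrial RNA, with -0.22 ± 0.17, and between the genotypes in untreated islets to Lrpprc, which stabilizes mitochondrial mRNAs, with -0.23 ± 0.11. Of the 86 nuclear-encoded subunits of oxidative phosphorylation 49 lay above 0 in KO islets and 12 in WT islets with cytokines, and of 78 mitochondrial ribosomal proteins 35 and 20; 0 passed in any table. In untreated islets 10 of those 86 lay above 0 for KO over WT. Among snoRNA-binding proteins 13 of 20 lay above 0 in KO islets, with Nop58, a core C/D protein, at 0.10 ± 0.13, and 0 passed.

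The same held for the partners of the other RNAs. The proteins of RNase P and MRP had a median of 0.03 in KO islets with 8 of 11 above 0, and Rpp25, a subunit of both enzymes, had 0.94 ± 0.45 for KO over WT with cytokines in the authors' deposited table, which did not pass. Of the 7SK complex, Hexim1, its kinase inhibitor, had -0.32 ± 0.14 in KO islets and -0.27 ± 0.14 in WT islets. None of the 8 listed genes for signal recognition particle proteins was above 0 with cytokines in WT islets, with a median of -0.23, and 4 of 8 were in KO islets. Of the Y RNA partners, Trove2, which encodes Ro60, had -0.13 ± 0.19 in KO islets. Of 13 spliceosomal snRNP protein genes 9 lay above 0 in KO islets and 4 in WT islets, and of 2 telomerase protein genes 0 in either. Of 16 listed noncoding host genes of snoRNAs 11 lay above 0 in KO islets, led by Gas5 with 0.21 ± 0.14. None of these genes passed.

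Replication-dependent histone mRNAs, which carry no poly(A) tail, leaned upwards with cytokines in both genotypes. The part of a missing tail in any of these differences was not tested. By the authors' deposited tables, of 46 histone genes 41 lay above 0 in KO islets, with a median log2 fold change of 0.18, and 34 in WT islets, with a median of 0.18. Of these, 2 linker histone genes rose in KO islets, Hist1h1d by 0.85 ± 0.14 (FDR 3.5e-05) and Hist1h1e by 0.56 ± 0.13 (FDR 0.0332), and 0 passed in WT islets. In limma with the mouse as a block, 3 histone genes were called higher in KO islets and 2 in WT islets. Of 7 listed transcripts that are kept in the nucleus or resemble rRNA, 5 lay above 0 in KO islets and 4 in WT islets. With cytokines, Gm15564 and Lars2 had 1.33 ± 0.42 and 1.12 ± 0.57 in KO islets, and 0.78 ± 0.41 and 0.76 ± 0.57 in WT islets. For KO over WT these 2 had -0.72 ± 0.45 and -0.49 ± 0.61 in untreated islets, and -0.43 ± 0.45 and -0.35 ± 0.61 with cytokines. None of these values passed.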

How the data were processed

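RNA of whole islets was sequenced with standard Illumina libraries, per the labels' protocols, and GRCm38, HTSeq, HISAT2 and DESeq2 are named, without versions, in the submitters' processing notes. The authors deposited 4 tables of comparisons with, per gene, group means of normalized reads (a signal, without library columns), a log2 fold change, a test score (the fold change over its standard error), and a p-value with its FDR; 0 columns held single samples. Dividing each fold change by its score gave the standard error. Every listed gene had a mean of at least 23.2 normalized reads, so lower members were filtered out before deposit.

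Whole reads per library were recovered from the deposited group means for 99.94% of genes, as the combination of 2 libraries that gives each mean. Libraries were named by Y-linked reads. Same-sex libraries of a genotype were taken as the same mouse: their deviations from group means correlated with r = 0.68 in KO and 0.72 in WT islets over 16323 genes, and the block rests on this. The deposited columns are means and not counts. Recovered reads were tested with limma 3.58.1 (R 4.3.3) on log2(normalized reads + 0.5), with Benjamini-Hochberg adjustment, in place of the count models planned. The method was checked on simulated data. The authors' FDR below 0.05 is the main call, and the difference of responses was a two-sided normal test on deposited values, adjusted over all genes. Copies were sought with blastn 2.17.0.

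Members and lists were chosen with earlier results of these data known. Named members were both rRNAs, the mRNAs by level and range, all Rn7s and Rny members, Rpph1 and Rmrp, every called member, and per class the 3 most abundant and the 3 with the smallest p. Others were added after their values were seen. Alternatives were other scalings, voom weights, a mean of at least 50, the mouse as a block and leaving out each mouse. Sequences of the other members are not reported here.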

Additional observations from a re-analysis of the deposited data

How the results depend on the processing

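The counts of members called rest on the test. With cytokines in KO islets the authors' tables called 0 members, limma with the mouse as a replicate block called 3 and with voom weights and the block 7, while without the block it called 0. For KO over WT in untreated islets the authors' tables called 2, and limma called 0 without a block, with voom weights, with TMM scaling of all or of other genes, with scaling by summed reads, and at a mean of at least 50. Without each mouse in turn that count ran from 0 to 0. The cause was not tested. The block changed no other count of members called. The planned edgeR and DESeq2 fits were not run. The deposited values are means, and the whole reads recovered from them were tested with limma alone.

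Of 112 alternative values of class medians, 97 moved by less than the spread and 15 by more, and 15 had the other sign. For the nuclear small RNAs in WT islets with cytokines the median was -0.11 without the WT female mouse. In untreated islets it was 0.05 without the KO female and 0.42 without the WT male mouse. For the mitochondrial rRNAs in untreated islets it was -0.79 without the KO male and -0.21 without the WT female mouse. For the mitochondrial mRNAs it was -0.14 for KO over WT with cytokines, and 0.14 with cytokines in WT islets, without the WT female mouse. Scaling moved the median of all genes by at most 0.03. Groups held 2 libraries each, and 16 members had means below 50 normalized reads, where counting error is larger. Leaving out the members listed only through KO cytokine islets was chosen after seeing the data.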
